A study of Mus musculus with 30 samples.

Results

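A set of 7 genes that stood far higher with retinoic acid in cultured fetal mouse testes was examined. They are Tnfsf13b, Il33, Lpar3, Npbwr1, Cdx1, Cebpe and Ecm1, 7 of the 49315 genes counted. They were picked by name because earlier results of the same libraries showed low vehicle levels and high levels with all-trans retinoic acid (ATRA), so their rise with ATRA is given as a description, with no test. Gene expression was measured by poly(A) RNA sequencing in 30 cultures of C57BL/6 testes taken on gestational day 14, freed of the mesonephros and cultured for 24 h. The groups were MEHP + ATRA (100 µM and 1 µM, n = 4), ATRA (1 µM, n = 5), MEHP (mono-(2-ethylhexyl) phthalate, the active monoester of a plasticizer, 100 µM, n = 6) and vehicle (n = 15), all with the same dilution of DMSO. The question was what the genes did with ATRA and whether MEHP changed that.

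All MEHP libraries carry a second title number above 500, all ATRA and MEHP + ATRA libraries one below it, and vehicle libraries lie in both ranges (6 upper, 9 lower). The labels do not say what the number is. Each treatment was therefore set against vehicle of its own range. Library totals ran from 17551454 to 29306917 counts. Levels are CPM, the counts scaled to library size. Whether any libraries share an animal or a litter is not stated in the labels, and the p-values therefore speak for the spread among libraries alone, which may be technical. In bulk RNA, more cells of a type and more RNA per cell cannot be told apart. Testis markers were present in every group. Summed over 6 genes, Sertoli cell markers held 1152 to 2388 CPM, and summed over 5 genes, Leydig cell markers held 1481 to 2411 CPM.

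Retinoic acid enters the nucleus and binds retinoic acid receptors, which sit on DNA as pairs with retinoid X receptors, typically at direct repeats of a short half-site, and turn from repressors into activators of nearby genes. The fetal testis normally keeps retinoic acid low through the degrading enzyme Cyp26b1, and germ cells exposed to it switch on Stra8 and can start meiosis too early. The 7 genes have different products. Tnfsf13b encodes BAFF, a cytokine that keeps B lymphocytes alive, and Il33 a nuclear alarmin cytokine of the interleukin-1 family. Lpar3 encodes a receptor for lysophosphatidic acid and Npbwr1 a receptor for neuropeptides B and W. Cdx1 encodes a caudal-type homeobox factor of axial and gut patterning, known in mouse embryos as a direct retinoic acid target. Cebpe encodes a C/EBP factor of granulocyte maturation, and Ecm1 a secreted glycoprotein of the extracellular matrix.

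RefSeq promoter windows (GRCm38.p6) were searched for 4 of the 7 genes. Cdx1 was left out of the search, and no window was given for Cebpe or Npbwr1, so these genes were not tested. The 6 windows each span 250 bases before and 50 bases after a start site. They were searched on both strands for the receptor half-sites AGGTCA or GGGTCA, and likewise AGTTCA or GGTTCA, and for direct repeats of any pair of them spaced by 1, 2 or 5 bases. Tnfsf13b is shown because it alone of the 4 genes held a direct repeat, and Ecm1 because it is the most abundant of the 7 transcripts. Both are the 250 bases before a start site, 5′ to 3′ on the gene's strand, with half-sites, and the spacer of the repeat, in capitals.
Tnfsf13b, chr8:10006217-10006466, plus strand: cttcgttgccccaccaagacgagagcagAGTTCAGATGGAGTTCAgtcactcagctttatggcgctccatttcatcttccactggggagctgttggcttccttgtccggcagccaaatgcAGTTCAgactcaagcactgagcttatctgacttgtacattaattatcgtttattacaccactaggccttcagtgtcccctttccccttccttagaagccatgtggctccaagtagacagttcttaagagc
Ecm1, chr3:95739570-95739819, minus strand: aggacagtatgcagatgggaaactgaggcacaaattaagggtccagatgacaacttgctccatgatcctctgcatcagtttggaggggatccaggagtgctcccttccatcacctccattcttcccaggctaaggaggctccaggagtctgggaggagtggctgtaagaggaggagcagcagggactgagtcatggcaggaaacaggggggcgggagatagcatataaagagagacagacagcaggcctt
In the Tnfsf13b window, counted from the start site, AGTTCA stood at -222 to -217, at -211 to -206 and at -130 to -125, and the first pair formed a direct repeat spaced by 5. The window of a second Tnfsf13b start site held GGTTCA once, on the opposite strand, at -117 to -112. The Ecm1 window held AGTTCA only after the start, at 2 to 7. The windows of Lpar3 and of both Il33 start sites held none of the half-sites. Among 32851 mouse promoter windows of 300 bases, 43.7% held a half-site, and 0.222%, 0.268% and 0.0974% held a direct repeat spaced by 1, by 2 and by 5. A match is a run of letters, not a measured binding site.

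The working name of the genes calls them silent without retinoic acid, and the counts go against that. All 7 had at least 1 read in every one of the 15 vehicle libraries. Over these, Ecm1 averaged 17.6 ± 1.87 CPM (SD, n = 15), with 264 to 545 reads per library, and Il33 averaged 2.5 ± 1.81 CPM. The other 5 averaged under 1 CPM in lower-range vehicle libraries, with 3 to 39 reads per vehicle library, a low but nonzero level. Low vehicle levels were common, as 3456 tested genes averaged under 1 CPM in lower-range vehicle, of which 310 rose with ATRA and 76 rose by a log2 fold change of at least 2. The share of all 19323 tested genes called higher with ATRA was 9.06% (adjusted p under 0.05, edgeR's quasi-likelihood test).

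**Figure D1:**
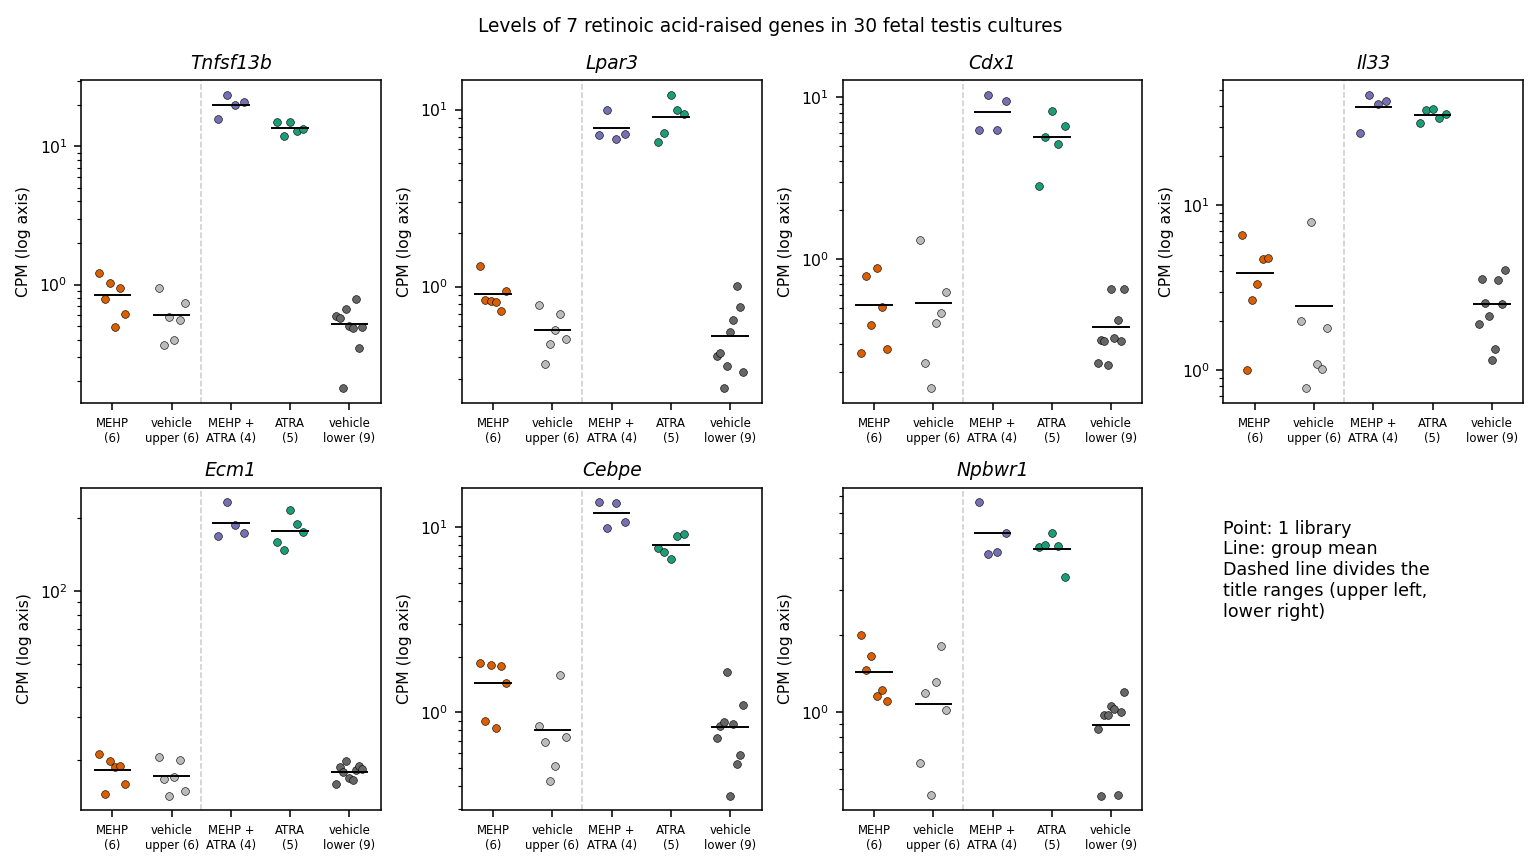
Level of each gene in CPM (log axis) in every library, by group; each point is 1 library, the line is the group mean and the dashed line divides the title ranges. For every gene the MEHP + ATRA and ATRA points lie above all vehicle points, while MEHP points overlap those of upper-range vehicle.

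The 2 cytokine genes came up to very different levels. Tnfsf13b (ENSMUSG00000031497, chromosome 8, 10006467 to 10039072, plus strand) had 15.8, 23.6, 20.04 and 21.1 CPM in MEHP + ATRA libraries and 15.0, 11.8, 15.1, 12.9 and 13.3 CPM in ATRA libraries, against 0.178 to 0.791 CPM (median 0.505) in lower-range vehicle. Every library with ATRA stood far above every vehicle library, and each MEHP + ATRA library stood above each ATRA library. Its log2 fold change against vehicle, with its SE, was 5.29 ± 0.19 with MEHP + ATRA and 4.73 ± 0.18 with ATRA, a 26.6-fold difference that ranked 5 among all genes tested. Without ATRA it stayed near the detection floor, with 0.495 to 1.21 CPM (median 0.868) in MEHP libraries and 0.366 to 0.948 CPM (median 0.571) in upper-range vehicle.

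Il33 (ENSMUSG00000024810, chromosome 19, 29925114 to 29960718, plus strand) had 27.6, 46.6, 41.3 and 43.0 CPM in MEHP + ATRA libraries and 31.3, 37.7, 38.3, 33.7 and 35.7 CPM in ATRA libraries, against 1.16 to 4.06 CPM (median 2.53) in lower-range vehicle. The ATRA libraries differed little among themselves, and the MEHP + ATRA libraries lay on both sides of them. Its log2 fold change was 3.97 ± 0.34 with MEHP + ATRA and 3.81 ± 0.33 with ATRA, or 14.0-fold. Without ATRA, Il33 varied widely among upper-range libraries. It had 6.63, 1.01, 2.69, 3.35, 4.74 and 4.83 CPM in MEHP libraries, against 2.00, 0.778, 7.96, 1.09, 1.02 and 1.81 CPM in upper-range vehicle. The vehicle library at 7.96 CPM, replicate 6, lay above every MEHP library, and the other 5 vehicle libraries lay below 5 of the 6 MEHP libraries.

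Of the receptor genes, Lpar3 came up further than Npbwr1. Lpar3 (ENSMUSG00000036832, chromosome 3, 146220963 to 146286186, plus strand) had 7.21, 10.01, 6.80 and 7.29 CPM in MEHP + ATRA libraries and 6.52, 7.42, 12.1, 9.999 and 9.48 CPM in ATRA libraries, against 0.266 to 1.00 CPM (median 0.420) in lower-range vehicle. It was the only 1 of the 7 with a lower mean in MEHP + ATRA than in ATRA libraries, and those groups overlapped. Its log2 fold change was 3.87 ± 0.21 with MEHP + ATRA and 4.09 ± 0.20 with ATRA, or 17.0-fold. In MEHP libraries it had 0.726 to 1.32 CPM (median 0.837), against 0.366 to 0.790 CPM (median 0.540) in upper-range vehicle, so 5 of 6 MEHP libraries stood above all 6 of these vehicle libraries.

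Npbwr1 (ENSMUSG00000033774, chromosome 1, 5913707 to 5917398, minus strand) had 6.60, 4.14, 4.23 and 5.01 CPM in MEHP + ATRA libraries and 4.43, 4.49, 5.03, 4.46 and 3.37 CPM in ATRA libraries, against 0.473 to 1.21 CPM (median 0.978) in lower-range vehicle. Its groups with ATRA overlapped each other and lay entirely above vehicle. The log2 fold change was 2.47 ± 0.22 with MEHP + ATRA and 2.27 ± 0.21 with ATRA, or 4.83-fold, the smallest of the 7, ranking 78 among all genes tested. It had 1.11 to 2.00 CPM (median 1.34) in MEHP libraries, against 0.477 to 1.81 CPM (median 1.10) in upper-range vehicle.

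Both transcription factor genes were under 1 CPM on average in vehicle. Cdx1 (ENSMUSG00000024619, chromosome 18, 61018862 to 61036199, minus strand) had 6.26, 10.3, 6.21 and 9.49 CPM in MEHP + ATRA libraries and 2.83, 5.67, 8.23, 5.13 and 6.58 CPM in ATRA libraries, against 0.222 to 0.658 CPM (median 0.315) in lower-range vehicle. Relative to their mean, its ATRA libraries spread the widest of the 7 genes, with ATRA replicate 1 lowest. That library also held the lowest ATRA-group level of the textbook targets Cyp26a1, at 5.58 CPM, and Stra8, at 56.5 CPM, where the other 4 ATRA libraries held 17.2 to 25.7 CPM and 135 to 205 CPM. It was the lowest of its group for Lpar3 and Il33 also, and not for Tnfsf13b, Ecm1, Cebpe or Npbwr1. The log2 fold change of Cdx1 was 4.40 ± 0.31 with MEHP + ATRA and 3.90 ± 0.31 with ATRA, or 14.9-fold. It had 0.263 to 0.879 CPM in MEHP libraries, against 0.159 to 1.32 CPM in upper-range vehicle, where the highest value, in replicate 3, rested on 25 reads.

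Cebpe (ENSMUSG00000052435, chromosome 14, 54710363 to 54712174, minus strand) had 13.6, 9.96, 13.5 and 10.7 CPM in MEHP + ATRA libraries and 7.71, 7.33, 6.70, 9.02 and 9.22 CPM in ATRA libraries, against 0.353 to 1.65 CPM (median 0.840) in lower-range vehicle. As for Tnfsf13b, all 4 MEHP + ATRA libraries stood above all 5 ATRA libraries. The log2 fold change was 3.83 ± 0.24 with MEHP + ATRA and 3.25 ± 0.23 with ATRA, or 9.48-fold. In MEHP libraries it had 1.84, 0.899, 1.81, 0.824, 1.79 and 1.44 CPM, against 0.424 to 1.58 CPM (median 0.711) in upper-range vehicle, where the highest value belonged to replicate 11. Cebpe marks maturing granulocytes in the mouse, and granulocyte markers summed over 9 genes held 22.6 to 85.2 CPM in MEHP + ATRA, 13.4 to 159 CPM in ATRA and 6.22 to 117 CPM in lower-range vehicle libraries. They held 6.48 to 75.1 CPM in MEHP and 2.97 to 101 CPM in upper-range vehicle libraries, with vehicle replicate 11 highest. The median log2 fold change of the 9 was 0.19 with MEHP + ATRA and 0.79 with ATRA. None was at 0 throughout a group, and 0 of 9 passed by edgeR (adjusted, and also at an unadjusted p under 0.05) or by DESeq2 in MEHP + ATRA against ATRA or in MEHP + ATRA, ATRA or MEHP against vehicle. With ATRA the SEs of these markers ran from 0.32 (Csf3r) to 0.86 (Elane), so changes in them could have been missed. Their part in the Cebpe levels was not tested.

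Ecm1 (ENSMUSG00000028108, chromosome 3, 95734147 to 95739569, minus strand) was the most abundant of the 7 in every group and, relative to its mean, the least variable in vehicle. It had 169, 233, 188 and 173 CPM in MEHP + ATRA libraries and 160, 148, 216, 190 and 176 CPM in ATRA libraries, against 15.9 to 19.9 CPM in lower-range vehicle. These groups were about an order of magnitude apart with no library between them, and the log2 fold change was 3.41 ± 0.10 with MEHP + ATRA and 3.31 ± 0.09 with ATRA, or 9.94-fold. It had 14.5 to 21.2 CPM in MEHP libraries, against 14.2 to 20.7 CPM in upper-range vehicle. The microRNA gene Mir7014 shares 63 exonic bases with Ecm1 on the same strand, and it was listed at 0 in every library. Tnfsf13b overlaps Gm44789 on the opposite strand, with no shared exonic base.

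In all 7 genes the 5 ATRA libraries lay above all 9 lower-range vehicle libraries (4.95% of all genes tested did), and so did the 4 MEHP + ATRA libraries (9.14%), which is what the genes were picked for. The median log2 fold change of the 7 with ATRA was 3.81, against a median of -0.0002 over all genes. Compared per transcript length, in TPM (a scale like CPM that also corrects for length) computed from the deposited gene lengths, Ecm1 led in ATRA libraries at 232 ± 36.6, followed by Il33 at 40.3 ± 3.71, Cebpe at 21.2 ± 3.0, Lpar3 at 12.2 ± 3.07, Cdx1 at 10.7 ± 3.87, Tnfsf13b at 6.53 ± 0.677 and Npbwr1 at 3.88 ± 0.524 (SD, n = 5). The first 3 did not overlap with their neighbours in this order, while Lpar3 overlapped Cdx1 and Cdx1 overlapped Tnfsf13b, which lay above Npbwr1 in every library. In lower-range vehicle Ecm1, at 23.0 ± 1.74, Il33, at 2.85 ± 1.15, and Cebpe, at 2.19 ± 0.974, led again (SD, n = 9), and the ranges of Il33 and Cebpe overlapped. Tnfsf13b, the gene with the largest fold change, was the lowest there at 0.243 ± 0.0836 TPM.

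**Figure D2:**
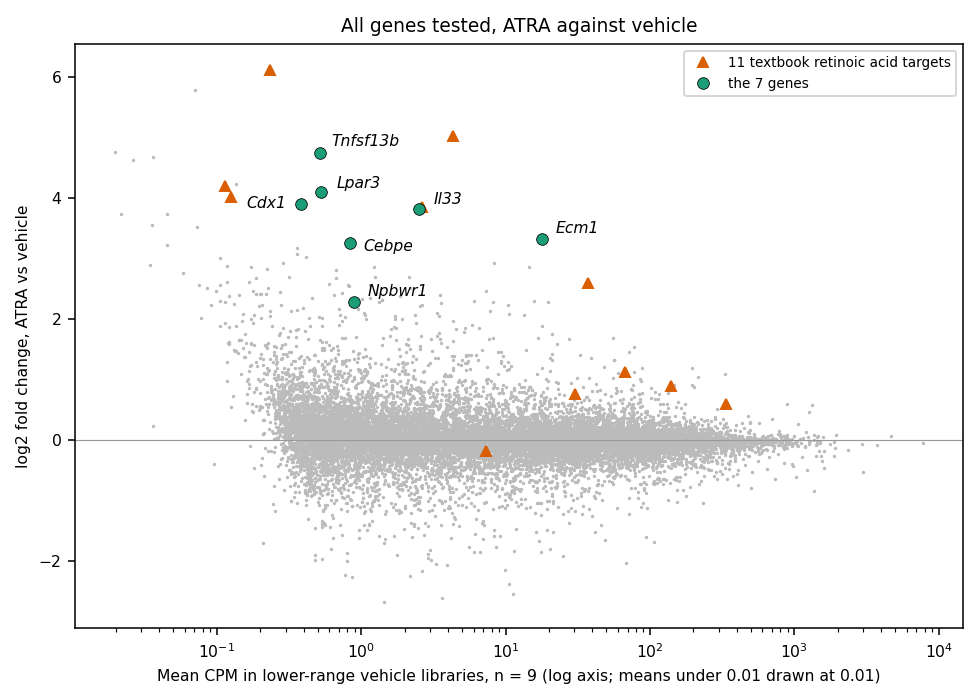
Log2 fold change of ATRA against vehicle for every gene tested, by mean CPM in the 9 lower-range vehicle libraries (log axis); grey dots are all genes, circles the 7 genes and triangles 11 textbook retinoic acid targets. The 7 genes lie between 2.27 and 4.73, and Ecm1 stands out among them by its vehicle level.

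The same cultures showed the textbook response. Of 11 known retinoic acid targets, 10 rose with ATRA and 0 fell (median log2 fold change 2.59), where 9.06% of all genes were called higher. The degrading enzyme gene Cyp26a1 rose by 6.10 ± 0.31 (adjusted p = 2.32e-15, edgeR), the meiotic gatekeeper gene Stra8 by 5.03 ± 0.32 (adjusted p = 3.17e-13) and the receptor gene Rarb by 3.85 ± 0.16 (adjusted p = 1.26e-17). Crabp2, which encodes a retinoic acid carrier, did not pass (-0.18 ± 0.16, adjusted p = 0.544). Of the 5 other retinoid receptor genes, Rarg rose by 0.34 ± 0.09 (adjusted p = 0.00722) and Rara fell by 0.26 in log2 (SE 0.08, adjusted p = 0.0213, and 0.0505 without ATRA replicate 1).

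MEHP alone did not change any of the 7 past the threshold. By edgeR 0 of 7 were called against upper-range vehicle, where 4.72% of all genes were, and DESeq2 called 1, Cebpe (0.83, adjusted p = 0.0475). At an unadjusted p under 0.05 there were 2 of 7, Lpar3 and Cebpe, against 14.8% of all genes. No gene had all 6 MEHP libraries above all 6 vehicle libraries (1.2% of all genes). Still, 6 of 7 log2 fold changes lay above 0, with a median of 0.51 against -0.01 over all genes. Of the 7, Cdx1 had too few reads to be tested in upper-range libraries alone. The MEHP libraries are not those that chose the genes for their rise, but low vehicle levels were part of the choice and the vehicle libraries are shared.

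Cebpe had a log2 fold change of 0.83 ± 0.29 with MEHP (95% interval 0.24 to 1.42, adjusted p = 0.108, edgeR), and without vehicle replicate 11, its highest vehicle library, 1.16 with an adjusted p = 0.0115. Over 37 alternatives its adjusted p ran from 0.0115 to 0.259. Il33 had 0.68 ± 0.41 (-0.16 to 1.52, adjusted p = 0.484), and without vehicle replicate 6 it had 1.55 with an adjusted p = 0.00479. Its range over 37 alternatives was 0.00479 to 0.785, so leaving out 1 vehicle library brought the call in each gene. Lpar3 had 0.68 ± 0.26 (0.14 to 1.22, adjusted p = 0.165) and Tnfsf13b 0.51 ± 0.25 (0.00 to 1.03, adjusted p = 0.345). When all 15 vehicle libraries served as 1 group, Lpar3 had 0.74 (adjusted p = 0.0189), Tnfsf13b 0.64 (adjusted p = 0.0402) and Cebpe 0.80 (adjusted p = 0.0197), and 3 of 7 were called. In that fit all MEHP libraries were upper-range and 9 of the 15 vehicle libraries lower-range, so MEHP and range cannot be told apart. It also called more of all genes than the fit with the range term did. Npbwr1 had 0.41 ± 0.25 (adjusted p = 0.477), Ecm1 0.08 ± 0.11 (-0.14 to 0.29, adjusted p = 0.834) and Cdx1 -0.04 ± 0.41 (-0.88 to 0.81, adjusted p = 0.986). Ecm1, with the narrowest interval of the 7, had 258 or more reads per library. Of the retinoic acid targets, Stra8 rose with MEHP by 2.05 ± 0.42 and Dhrs3 by 0.57 ± 0.07 (2.88% of all genes rose).

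**Figure D3:**
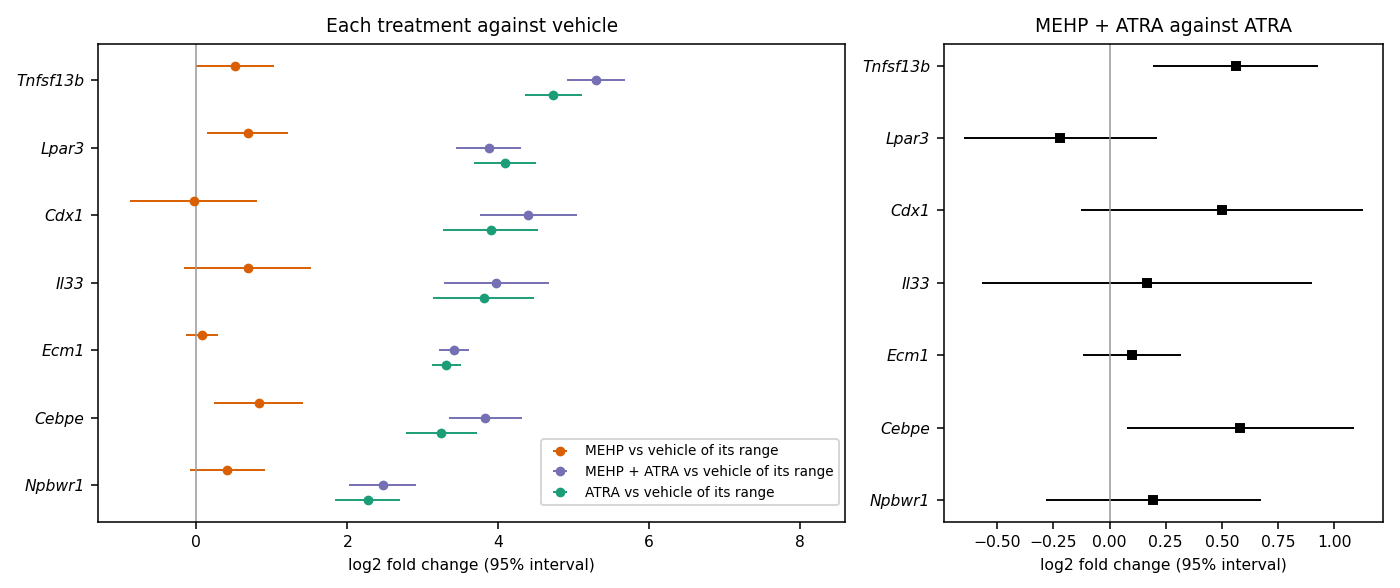
Log2 fold changes of the 7 genes with 95% intervals, for each treatment against vehicle of its range (left) and for MEHP + ATRA against ATRA (right). Differences with ATRA in the medium lie between 2.27 and 5.29, while the MEHP difference reaches at most 0.83, and on the right the intervals of Tnfsf13b and Cebpe leave out 0.

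The 7 genes were also high with MEHP + ATRA, which was part of what they were picked for. The comparison with ATRA shares its libraries with the comparisons that chose the genes. Tnfsf13b and Cebpe were higher in each of 4 MEHP + ATRA libraries than in any of 5 ATRA libraries. Such a pattern was seen in 3.6% of all genes. By edgeR, 0 of 7 were called (3.0% of all genes were), 2 of 7 had an unadjusted p under 0.05 (13.3% of all genes), and DESeq2 called 1. Tnfsf13b averaged 20.1 ± 3.25 CPM in MEHP + ATRA libraries (SD, n = 4) and 13.6 ± 1.40 CPM in ATRA libraries (n = 5), a log2 fold change of 0.56 ± 0.18 (0.19 to 0.93, adjusted p = 0.0932, edgeR). DESeq2 gave 0.57 with an adjusted p = 0.00646, and its adjusted p over 37 alternatives ran from 0.00646 to 0.484. Cebpe averaged 11.95 ± 1.89 CPM and 8.0 ± 1.09 CPM in the same groups, a log2 fold change of 0.58 ± 0.25 (0.08 to 1.09, adjusted p = 0.268, edgeR). Cdx1 had 0.50 ± 0.31 (-0.13 to 1.13, adjusted p = 0.535), Npbwr1 0.20 ± 0.24 (adjusted p = 0.799), Il33 0.17 ± 0.36 (-0.57 to 0.90, adjusted p = 0.907), Ecm1 0.10 ± 0.11 (-0.12 to 0.32, adjusted p = 0.771) and Lpar3 -0.22 ± 0.21 (-0.65 to 0.21, adjusted p = 0.740). The median of the 7 was 0.20, against -0.01 over all genes. Of the textbook targets, Dhrs3 rose further with MEHP + ATRA by 0.46 ± 0.07 (adjusted p = 2.66e-04), where 1.62% of all genes were called higher, while Cyp26a1 (0.21 ± 0.28, adjusted p = 0.826), Rarb (0.45 ± 0.17, adjusted p = 0.199) and Stra8 (0.68 ± 0.33, adjusted p = 0.372) did not pass.

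Whether the MEHP difference itself depended on ATRA was tested as the MEHP difference with ATRA minus that without it. By edgeR, 0 of 7 were called, against 0.0311% of all genes, 1 of 7 had an unadjusted p under 0.05 (4.28% of all genes), and DESeq2 called 0. The gene was Lpar3, at -0.90 ± 0.34 (-1.59 to -0.21, p = 0.012, adjusted p = 0.815). The intervals of the other 6 held 0, and they were wide for Il33 (-1.63 to 0.60) and Cdx1 (-0.52 to 1.60) and narrow for Ecm1 (-0.28 to 0.33). MEHP with and without ATRA lies in different title ranges, and the fit assumes that the range shift in vehicle holds for treated libraries.

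Of 32 relatives, ligands, receptors and partners of the 7 genes, in 7 lists, 24 had enough reads to test. With ATRA 5 of them rose, where 9.06% of all genes were called higher, and 5 fell, so 10 of 24 were called where 18.1% of all genes were called in either direction. Their median log2 fold change was 0.03, and the largest, 0.98, lay below the smallest of the 7 genes, 2.27. The 7 were picked for a large rise in this comparison and the relatives were not, so that gap follows from the choice. For BAFF, the receptor gene Tnfrsf13b (TACI) rose by 0.98 ± 0.31 (adjusted p = 0.0255, and up to 0.070 without ATRA replicate 3 or without ATRA replicate 5). It held 0.872 to 1.32 CPM in ATRA libraries, against 0.353 to 0.738 CPM in lower-range vehicle. The second ligand gene Tnfsf13 did not pass (0.49 ± 0.22, adjusted p = 0.127), and the receptor genes Tnfrsf13c and Tnfrsf17 averaged at most 0.401 CPM in any group and were not tested. B lymphocyte markers summed over 5 genes held 2.66 to 5.41 CPM in ATRA libraries, against 1.66 to 4.11 CPM in lower-range vehicle. Of these, 4 were tested and 0 passed with ATRA by edgeR or DESeq2, and 1, Cd79a, had an unadjusted p under 0.05 (0.63 ± 0.23, adjusted p = 0.0549), and their part in the Tnfrsf13b level was not tested.

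Around Lpar3, 7 of 8 lysophosphatidic acid genes were tested, and with ATRA 3 rose and 2 fell (18.1% of all genes were called in either direction). Enpp2, which encodes autotaxin, the enzyme that makes lysophosphatidic acid, rose by 0.86 ± 0.12 (adjusted p = 1.37e-06, edgeR) to 34.9 ± 5.71 CPM in ATRA libraries, against 19.3 ± 1.98 CPM in lower-range vehicle. In MEHP + ATRA libraries it averaged 24.5 ± 4.22 CPM, lower than in ATRA libraries (-0.51 ± 0.14, adjusted p = 0.0401, a call that ended in 10 of 30 fits that each left out 1 library, and under 3 of 7 other alternatives, up to 0.064). The receptor genes Lpar1 and Lpar2 rose by 0.36 ± 0.09 and 0.33 ± 0.08, Lpar4 fell by 0.32 in log2 (adjusted p = 0.0341, a call that ended in 7 of 30 such fits, and with no filter on low counts at 0.0615) and Plpp3, which encodes a phosphatase that breaks the lipid down, fell by 0.29. Lpar1 and Lpar2 were more abundant than Lpar3 also with ATRA, at 31.2 ± 2.34 and 21.01 ± 1.34 TPM against 12.2 ± 3.07 for Lpar3 in the same libraries. In lower-range vehicle those values were 23.9 ± 1.80 and 16.5 ± 1.72, against 0.695 ± 0.320 for Lpar3.

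The other caudal genes, Cdx2 and Cdx4, stayed at 0 to 4 reads per library in every group and were not tested, while Cdx1 held 69 to 226 reads in ATRA libraries, against 5 to 13 in lower-range vehicle. A rise of that size was thus not seen in them, and smaller changes were not detectable at this depth. Of 3 tested gut epithelium markers, 0 passed with ATRA by edgeR (0 also at an unadjusted p under 0.05 and by DESeq2), and 1, Lgals4, rose with MEHP + ATRA against ATRA by 0.58 ± 0.13 (adjusted p = 0.0104, and 0.0759 without MEHP + ATRA replicate 4) and with MEHP by 0.93 ± 0.12 (adjusted p = 1.81e-06). Its part in the Cdx1 levels was not tested. In the interleukin-1 family, 0 of 6 tested genes passed with ATRA by edgeR, 0 at an unadjusted p under 0.05 and 0 by DESeq2. The genes of the Il33 receptor, Il1rl1 (0.16 ± 0.44, adjusted p = 0.879) and Il1rap (0.02 ± 0.08, adjusted p = 0.934), were among them, and Il1rl1 held 3 to 13 reads per ATRA library. With MEHP + ATRA against vehicle, where the share of all genes called was 29.0%, Il1r1 fell by 0.39 in log2 (adjusted p = 1.58e-05), and the antagonist gene Il1rn had -0.79 ± 0.26 (adjusted p = 0.0195, and up to 0.078 without MEHP + ATRA replicate 1 or without MEHP + ATRA replicate 3, and up to 0.169 with no range term or no filter). Among C/EBP genes, Cebpb rose by 0.55 ± 0.17 with ATRA (adjusted p = 0.0166, and up to 0.116 without ATRA replicate 1 or without ATRA replicate 2), while Cebpa fell by 0.54 in log2 (SE 0.15, adjusted p = 0.00793). Cebpa also fell with MEHP alone, by 0.66 in log2 (adjusted p = 0.00574, and 0.069 in upper-range libraries alone), the opposite sign to the value of Cebpe. Cebpg had -0.12 ± 0.04 (adjusted p = 0.049, a call that ended in 22 of 30 fits that each left out 1 library, and under 4 of 7 other alternatives). Of the matrix partners of Ecm1, the fibulin gene Fbln1 fell by 0.25 in log2 (adjusted p = 0.00986, and 0.206 with no range term), while Hspg2, which encodes perlecan, and Mmp9 did not pass. Npb, the ligand gene of Npbwr1, held 6 to 18 reads per ATRA library (-0.10 ± 0.31, adjusted p = 0.886), and Npw was not tested.

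**Figure D4:**
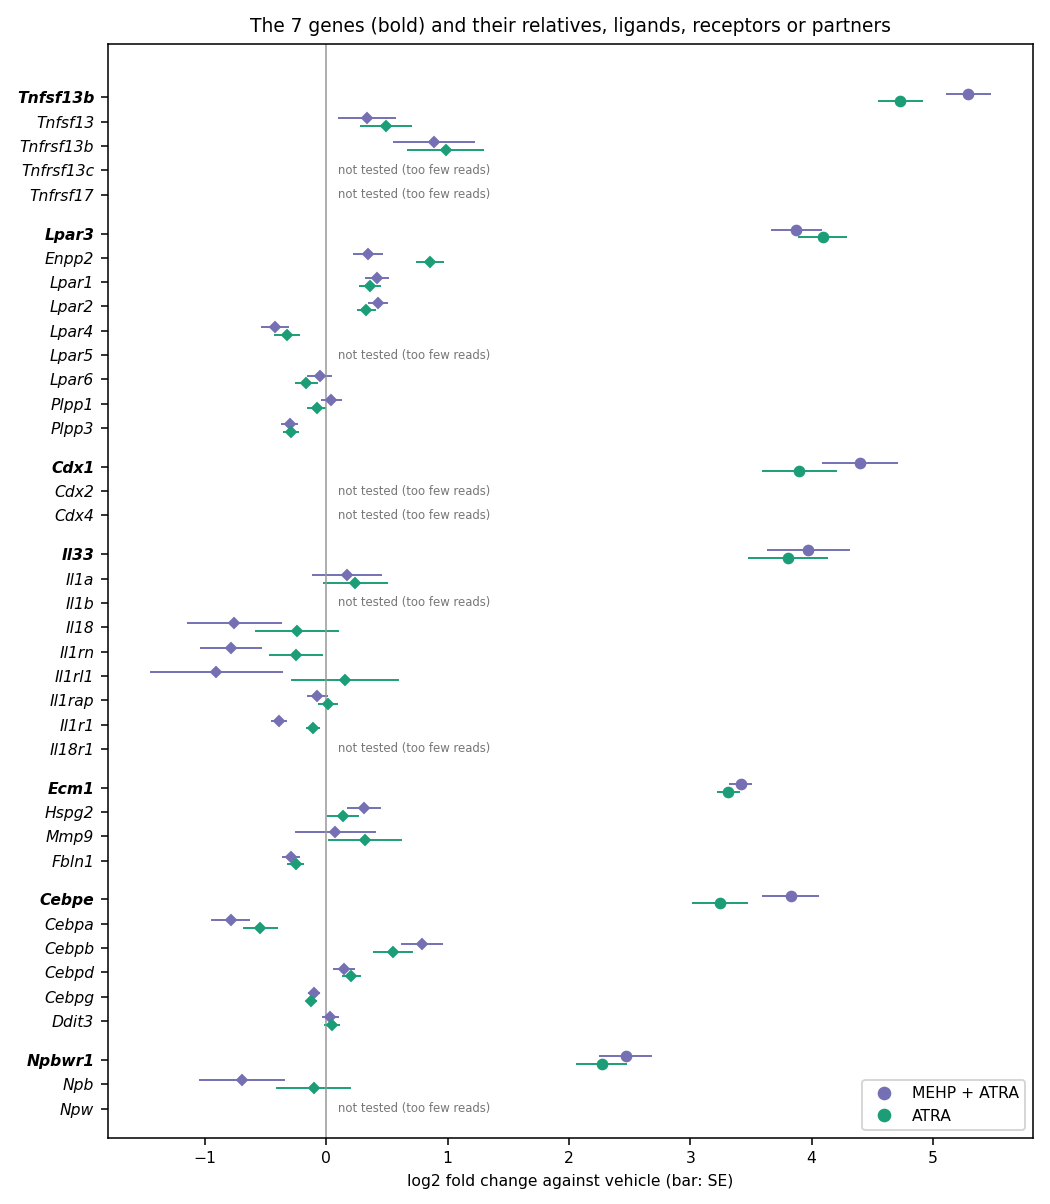
Log2 fold change against vehicle (bars are SE) for the 7 genes in bold and the 32 listed relatives, ligands, receptors and partners, with MEHP + ATRA and with ATRA. The 7 genes, picked for their rise with ATRA, lie at 2.27 or above, and the relatives tested, not picked for it, lie between -1 and 1.

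Markers of macrophages and germ cells did not pass with ATRA, while some of Sertoli, endothelial and Leydig cells and of the mesonephric duct did. Macrophage markers (8 genes) held 55.4 to 74.3 CPM in MEHP + ATRA, 58.5 to 108 CPM in ATRA and 54.4 to 107 CPM in lower-range vehicle libraries, and 0 of 8 passed by edgeR or DESeq2 in any of the 4 comparisons, with at most 1 at an unadjusted p under 0.05. Of 5 germ cell markers, 0 passed with ATRA by edgeR or DESeq2 and 1 had an unadjusted p under 0.05. Dppa3 fell with MEHP + ATRA by 1.08 in log2 (SE 0.39, adjusted p = 0.0352, a call that ended in 4 of 30 fits that each left out 1 library, and under 2 of 7 other alternatives). Of 6 Sertoli cell markers, 5 rose with ATRA (9.06% of all genes did), such as the tight junction gene Cldn11 by 1.66 ± 0.16, and the hormone gene Amh fell by 0.61 in log2. The call of 1 of the 5, Dhh, ended with no range term (adjusted p = 0.0902). With MEHP alone 3 of the 6 rose (2.88% of all genes did), of which Aard and Cst9 were not called in upper-range libraries alone, and Amh fell by 0.63 in log2. Of 5 endothelial markers, Pecam1 rose by 0.92 ± 0.12 with MEHP + ATRA and by 0.49 ± 0.12 with ATRA (adjusted p = 0.0025). Cdh5, Kdr, Tek and Emcn lay below 0 with ATRA and did not pass, and the median of the 5 was -0.23. Tek fell with MEHP + ATRA by 0.52 in log2 (adjusted p = 0.0103, edgeR, and 0.0528 without MEHP + ATRA replicate 1). Pecam1 and Kdr rose with MEHP, calls that ended in 14 and 17 of 30 fits that each left out 1 library. Of 5 Leydig cell markers, Star, the cholesterol carrier of steroid synthesis, rose by 0.82 ± 0.14 with MEHP + ATRA and by 0.38 ± 0.13 with ATRA (adjusted p = 0.0428, a call that ended in 12 of 30 fits that each left out 1 library, and under 2 of 7 other alternatives). Of the mesonephric duct and tubule markers 3 were tested, and Pax2 rose by 2.57 ± 0.24 with ATRA (adjusted p = 1.23e-09), at 3.73 to 5.64 CPM in ATRA libraries against 0.355 to 1.42 CPM in lower-range vehicle, while Pax8 and Lhx1 did not pass. With MEHP + ATRA Pax2 rose by 3.19 ± 0.25 and Lhx1 fell by 2.71 in log2. The part of any of these cells in the levels of the 7 genes was not tested.

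Across the 30 libraries the 7 genes had nearly the same profile, since those with ATRA were high and the rest low. The 21 pairs of them had Pearson correlations of log2 CPM from 0.78 to 0.98 (median 0.92), which describes that division more than anything finer. Among all other tested genes, ranked by the same measure over 30 libraries, those most like Tnfsf13b were Dhrs3 (0.98), Rarb (0.98) and Tmem255a (0.97), and those most like Lpar3 were Cyp26a1, Rarb and Dhrs3 (all 0.97). Ecm1 was most like Mpp6, Cyp26a1 and Dhrs3 (all 0.98), Cebpe like Lrrc32 (0.97), Dhrs3 (0.97) and Nr0b1 (0.96), and Cdx1 like Kit (0.96) and Clic6 (0.95). Il33 was most like Olfr1033 (0.96), Fzd7 (0.95) and Cyp7b1 (0.95), and Npbwr1 like Por (0.95), Hic1 (0.94) and Cldn11 (0.94). With a prior count of 0.5 in place of 2, Cyp26a1 was no longer among the 3 genes most like Lpar3 or Ecm1. These are the highest of many correlations and are high partly by that choice.

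Within groups the 7 genes did not move as one. After the mean of each treatment and range was subtracted, their 21 correlations ran from -0.54 (Il33 and Npbwr1) to 0.43 (Tnfsf13b and Lpar3), with a median of 0.14. Dhrs3, Rarb and Cyp26a1 were no longer among the closest genes of any of the 7. Il33 had the highest values, with Agtr2 (0.90), which encodes an angiotensin receptor, Crispld1 (0.87) and Cldn1 (0.85). Agtr2 held 32.2 CPM in vehicle replicate 6, the library with 7.96 CPM of Il33, against 5.31 to 15.4 CPM in the other 5 upper-range vehicle libraries. With ATRA in the medium Agtr2 held 5.01 to 9.50 CPM in MEHP + ATRA and 7.43 to 10.95 CPM in ATRA libraries, against 5.63 to 15.3 CPM in lower-range vehicle, so it was not high with ATRA. Its correlation with Il33 pools all groups and did not hold for each library. Of the ATRA libraries, replicate 3 had the most Il33, at 38.25 CPM, and the least Agtr2, at 7.43 CPM. Npbwr1 was most like Hps6 (0.81), Rap1gap (0.77) and Por (0.76), Cebpe like Mcemp1 (0.77), Itpripl2 (0.72) and Tor4a (0.70), and Ecm1 like Phf1 (0.74), Runx2 (0.73) and Zfp395 (0.71). Cdx1 was most like Kit (0.71), a receptor gene of germ cells, followed by Shank2 and Ssh2 (both 0.70), an order that changed with a prior count of 0.5, where Cbfa2t3 came first (0.72), Ssh2 next and Kit after them (both 0.71). Kit had a median of 124.5 CPM in MEHP + ATRA, 108 CPM in ATRA and 66.6 CPM in lower-range vehicle libraries, and these groups did not overlap. Of all genes, 3.6% lay entirely higher in MEHP + ATRA than in ATRA libraries, and 4.95% in ATRA than in lower-range vehicle libraries. The weakest likeness was that of Lpar3 with Sncb (0.67, and not among the first 3 with a prior count of 0.5), Apmap and Slc26a8 (both 0.63), and of Tnfsf13b with the pseudogene Rps15a-ps4 (0.64), Rps3a3 (0.64) and Cenps (0.63).

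**Figure D5:**
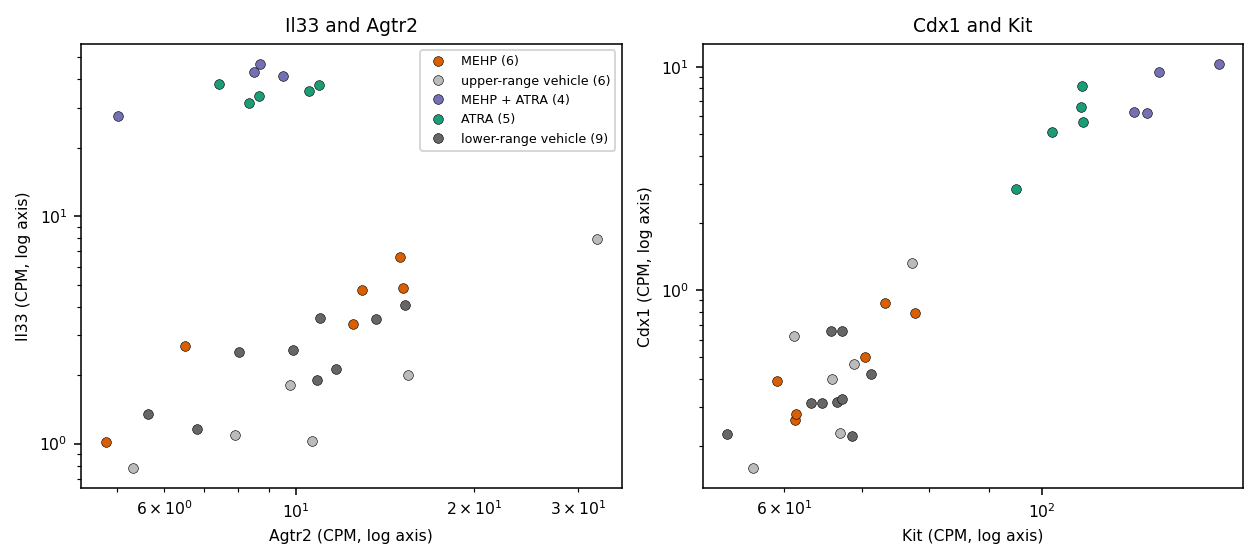
Il33 against Agtr2 (left) and Cdx1 against Kit (right), in CPM on log axes; each point is 1 library. Il33 and Agtr2 rise together among libraries without ATRA, while libraries with ATRA sit higher in Il33 at like Agtr2 levels; Cdx1 and Kit are both higher in libraries with ATRA.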

How the data were processed

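RNA was measured in 30 fetal testis cultures, 1 deposited file per library, grouped by the treatment label. Each holds whole-number counts of reads per gene, not normalized by the authors, and per the file headers it came from featureCounts. The submitters' processing notes name bcl2fastq 2.20, Trimmomatic 0.36, STAR 2.5.2b and Subread 1.5.2. Neither the build nor the annotation release nor the strand setting is stated there, so reads of overlapping genes on opposite strands cannot be told apart. Symbols were matched by gene identifier (99.3%). The files' coordinates are printed; they equal those of GENCODE M21 (GRCm38) for 6 of the 7 genes (Cebpe differs) and for 91.44% of matched genes.

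Counts were tested with edgeR 4.0.16 (R 4.3.3) after filterByExpr (minimum count 10, 19323 genes left) and TMM scaling (factors 0.975 to 1.023). One quasi-likelihood model over 30 libraries held the 4 groups and the title range, with 25 residual degrees of freedom and a common biological coefficient of variation of 12.7%. The tests are two-sided and Benjamini-Hochberg adjusted over all genes tested (threshold 0.05). SEs were derived from the F statistic and are on the log2 scale. The code was tested on simulated counts. Library totals by group were 21463109 to 24038103 in MEHP + ATRA, 18580209 to 26955598 in ATRA, 17787871 to 20680365 in MEHP and 17551454 to 29306917 in vehicle. Genes with few reads have wide intervals. No pair of libraries of a group agreed within counting noise (lowest chi-square per degree of freedom 2.667).

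The genes, the lists and the tests were chosen with earlier results of these data known. Named were all 7 genes, called genes of the lists or those that complete a family, and for each of the 7 the 3 genes with a proper symbol most like it, over all libraries and within groups (log2 CPM, prior count 2), leaving out some genes that are not reported here. Alternatives were DESeq2 1.42.0, its size factors in edgeR, no filter, no range term, 1 range only, a block on the first title number, each library left out in turn, a prior count of 0.5 and, chosen after seeing the data, MEHP replicate 4 and vehicle replicate 3 left out together.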

Additional observations from a re-analysis of the deposited data

Results flagged for a closer look

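Among 35 combinations of gene and group, 4 held a library whose gap to its nearest neighbour was large against the spread of its group (Dixon's criterion, which chance meets in about 1 in 20 groups, and which low counts can meet by themselves). Il33 had 7.96 CPM in vehicle replicate 6, from 150 reads, and the gap was 0.83 of the range of the 6 upper-range vehicle libraries. Cebpe had 1.58 CPM in vehicle replicate 11, from 34 reads, with a gap of 0.638 of the range of the same group. With either library left out, its gene was called in MEHP against vehicle, at the values given above. Lpar3 had 1.32 CPM in MEHP replicate 1, from 25 reads (gap 0.632, n = 6), and 10.01 CPM in MEHP + ATRA replicate 2, from 215 reads (gap 0.847, n = 4). Without these libraries Lpar3 gave no call in MEHP against vehicle or in MEHP + ATRA against ATRA.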

How the results depend on the processing

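Descriptions of the 7 genes against vehicle with ATRA or MEHP + ATRA kept their sign under every alternative run; over fits that each left out 1 library, log2 fold changes with ATRA ran from 2.19 to 2.35 for Npbwr1 and from 4.61 to 4.83 for Tnfsf13b. The count of genes called with MEHP was 912, against 2229 with no range term, 439 in upper-range libraries alone and 668 to 1151 with 1 library left out. For MEHP + ATRA against ATRA it was 579, against 967 in lower-range libraries alone and 340 to 689 with 1 left out. For the interaction it was 6, against 12 by DESeq2, 10 with no range term, 2 with the replicate block and 3 to 8 with 1 left out. Of the 7 genes, MEHP called 0, against 1 by DESeq2, 3 with no range term and 0 to 1 with 1 library left out. MEHP + ATRA against ATRA called 0, against 1 each by DESeq2, in lower-range libraries alone (Tnfsf13b 0.57, adjusted p = 0.0173) and without MEHP replicate 4 and vehicle replicate 3, chosen after seeing the data (0.56, adjusted p = 0.0375). Signs that turned were all of values near 0, and the cause was not tested. Cdx1 with MEHP (-0.04) was 0.24 with no range term, 0.25 without those 2 libraries and -0.25 to 0.46 with 1 left out. Ecm1 in MEHP + ATRA against ATRA (0.10) was -0.0005 to 0.19 with 1 left out. The interaction of Tnfsf13b (0.05) was -0.084 with no range term, -0.16 with the replicate block, -0.24 without those 2 libraries and -0.12 to 0.18 with 1 left out, and that of Ecm1 (0.02) was -0.02 without those 2 and -0.080 to 0.11 with 1 left out. Same-numbered libraries (first title number within a range, 27 pairs) had correlations of their deviations from -0.108 to 0.746 (median 0.143), with 15 over 0.1. Differently numbered pairs were not examined, so these values do not settle whether the number pairs libraries. The main fit left the number out. With the block, Tnfsf13b in MEHP + ATRA against ATRA had 0.34 (adjusted p = 0.484, edgeR), and no gene of the 7 was called in any tested comparison. The interaction could not be fitted within 1 range, and Cdx1 had too few reads for the fit of upper-range libraries alone. Without ATRA the genes other than Ecm1 and Il33 had few reads. Il33, with 17 to 150 reads per vehicle library, varied widely among libraries.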
